A study of Mus musculus with 2 samples.

Results

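The 38 genes described here cover the path of glucose through the cell and its response to low oxygen: glucose uptake, glycolysis, lactate and pyruvate handling, the pentose phosphate pathway, the oxygen sensors and a set of targets of the hypoxia-inducible factor (Hif). They were listed by function, at a time when other results of these data were known. An unshared sense tag was found for 37 of the 38, out of 14295 genes that had such a tag. Digital gene expression (DGE) tag profiling was used to compare 2 mouse cell lines, with 1 library per line. GC-1spg derives from type B spermatogonia of a donor aged 10 days. It was immortalised with pSV3-neo, a plasmid that carries the SV40 early region, and the labels place it past type B spermatogonia but short of primary spermatocytes. For GC-2spd (ts) the donor was 6 weeks old, the starting cells were spermatocytes and the transforming gene was SV40 large T antigen. The labels place this line before meiosis and say that it can no longer differentiate. Both lines grew in DMEM with 10% FBS and with sodium bicarbonate at 1.5 g/L, and both are immortalised with SV40 genes. With 1 library each, differences carry no replicate check, and the tests compare libraries, not stages of spermatogenesis.

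The GC-1spg library held 5072149 clean tags and that of GC-2spd (ts) 4726808, so that 1 tag was worth 0.197 and 0.212 tags per 1000000 clean tags (TPM). Pairs of values below give GC-1spg first and GC-2spd (ts) second. The labels call both lines male germ cells, but 14 of 15 germ cell markers had no tag in either library, and the other, *Spo11*, had 2 and 0 tags. Of 10 fibroblast markers, 9 were detected, at a summed 7846 and 4914 TPM, with *Sparc* the most abundant at 21159 and 10473 tags. Of these fibroblast markers, 2 were called higher and 1 lower. Of 10 Sertoli cell markers, 5 had no tag in either library. The list summed to 135 and 41.9 TPM, with *Wt1* at 620 and 0 tags, called lower, and *Gata4* at 29 and 138 tags, called higher. Of 7 Leydig cell markers, 4 had no tag in either library. The list summed to 4 and 193 tags, or 0.789 and 40.8 TPM, with *Nr5a1* at 0 and 188 tags. All 5 peritubular myoid cell markers were detected, at a summed 13.01 and 122 TPM, with *Acta2* at 50 and 555 tags. The part of these identity differences in the results below was not tested. Fewer cells with a transcript and less of it in each cell cannot be told apart in such libraries.

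Glycolysis splits glucose into pyruvate and yields ATP without oxygen, and lactate dehydrogenase turns pyruvate into lactate, which leaves the cell through monocarboxylate transporters. The pentose phosphate pathway branches off at glucose 6-phosphate and supplies NADPH and ribose. When oxygen is low, the prolyl hydroxylases of the Egln family stop marking Hif1a for breakdown, and Hif then activates many glycolytic genes together with genes of vessel growth, pH control and mitophagy. In the testis, Sertoli cells are known to export lactate, which spermatocytes and spermatids take up as fuel, and later germ cells carry their own versions of several glycolytic enzymes.

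Each DGE tag is CATG followed by 17 bases, 21 in all, and stands for 1 CATG site of a transcript, so counts need no scaling by length. The tags shown are a selection of those that carry the calls and the site differences described below, with both base differences. CATG is in capitals, and all are written 5′ to 3′ along the transcript.
Ldha: CATGccaaataaaaccttgaa
Ldhb: CATGtgatatgagctcacaga
Pgk1: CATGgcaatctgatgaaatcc
Eno2: CATGtcccacagttgccacca
Egln3: CATGctcaataaactcagtct
Ndrg1: CATGagagacaagggatcagt
Pdha1: CATGtgctgtgaaaaggaaac
Adm: CATGccagaaaccgagactta
Pkm, 3′ end: CATGcaatagagaccagctat
Pkm, exon 5: CATGgagaagtgtgacgagaa
Egln1, site 4: CATGctattaaattttgccct
Egln1, site 1: CATGttaggactcttgtttaa
Pdk1, reference: CATGctcctgagtggcattta
Pdk1, GC-1spg: CATGctcctgagtgacattta
Pgam1, reference: CATGgtgatttttaaccctaa
Pgam1, GC-1spg: CATGgtgatttttaatcctaa

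Positions are on GRCm38 with the transcripts of GENCODE release M21. In the 3′ UTR of the last exon lay the tags of *Ldha* (chr7:46855601-46855621, plus strand, exon 8), *Ldhb* (chr6:142490319-142490339, minus strand, exon 8) and *Pgk1* (chrX:106203617-106203637, plus strand, exon 11). The same held for *Eno2* (chr6:124760415-124760435, minus strand, exon 12), *Egln3* (chr12:54178989-54179009, minus strand, exon 5) and *Ndrg1* (chr15:66929497-66929517, minus strand, exon 16). It held as well for *Pdha1* (chrX:160122240-160122260, minus strand, exon 11) and *Adm* (chr7:110629320-110629340, plus strand, exon 4). The 3′ tag of *Pkm* lay in the 3′ UTR of exon 11 at chr9:59678980-59679000, plus strand, and its other tag in the coding sequence of exon 5 at chr9:59668978-59668998. Both *Egln1* tags lay in the 3′ UTR of exon 5, minus strand, at chr8:124910224-124910244 for site 4 and chr8:124908822-124908842 for site 1, where sites are counted from the 3′ end. The *Pdk1* tag lay in the 3′ UTR of exon 11 at chr2:71901858-71901878, plus strand, and this *Pgam1* tag in the 3′ UTR of exon 4 at chr19:41918235-41918255, plus strand.

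The 10 members called lower in GC-2spd (ts) ran from *Gpi1* and *Pgk1* at about 2-fold to *Ldhb* at 20.1-fold. They were 2 of 8 genes of upper glycolysis, 2 of 6 of lower glycolysis and 3 of 6 of lactate and pyruvate. The others were 1 of 3 oxygen sensors and 2 of 7 Hif targets. *Pdk1*, *Ndrg1* and *Bnip3l* were among those called lower, and *Pdha1* and *Adm* were called higher. A gene was called when its false discovery rate (FDR) in the Audic-Claverie test was at most 0.001 and its TPM differed at least 2-fold. Of the 37 members with a tag, 10 were called lower in GC-2spd (ts), against a background of 7.95% of all 14295 genes tested, and 2 were called higher, against 11.9%. In either direction 12 members were called, against 19.8% of all genes, with the Audic-Claverie FDR highest for *Pfkfb3*, at 0.000129. The 95% intervals of *Gpi1*, *Pfkfb3*, *Pgk1* and *Pdha1* reached below 2-fold. All 12 were among the 32 members with at least 20 tags over both libraries, and among the 10327 genes of that depth 10.2% were called lower and 15.8% higher. Over these 32 members the median log2 ratio of TPM, GC-2spd (ts) over GC-1spg, was -0.38, beside 0.19 over the 10327 genes, and 24 of the 32 lay below 0, or 75%, beside 41.3% of all. Every log2 ratio shifts by -0.18 with TMM scaling and by -0.17 with DESeq2 size factors, which put the median of all genes at 0.01 and 0.02. All genes split into 1694 higher and 1137 lower as reported, 1290 and 1460 with TMM, and 1315 and 1436 with DESeq2 size factors, and the members into 1 higher and 12 lower with either.

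**Figure D1:**
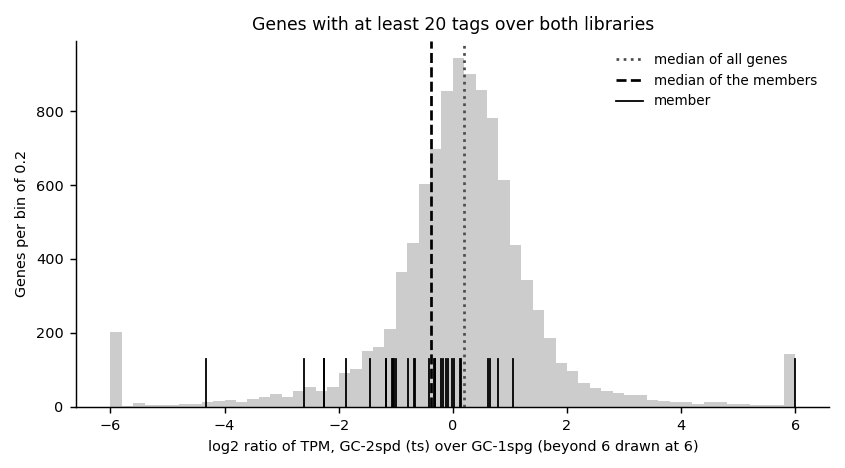
Number of genes (y axis, bins of 0.2) by log2 ratio of TPM, GC-2spd (ts) over GC-1spg (x axis), for the 10327 genes with at least 20 tags over both libraries. Short lines at the base mark the 32 members, the dashed line their median of -0.38 and the dotted line the median of all genes at 0.19, and the member at the right edge is *Adm*, with no tag in GC-1spg.

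The 18 glycolytic enzymes and lactate dehydrogenases together took 1.44% of all clean tags in GC-1spg (exact 95% interval 1.43 to 1.45), beside 0.8002% in GC-2spd (ts) (0.792 to 0.808), counting unshared tags only. That reading leaves out most tags of *Gapdh* and *Eno1*. The main *Gapdh* tag also matched predicted genes, which are copies of *Gapdh*, and the main *Eno1* tag matched its copy *Eno1b*. With those tags counted for the member, the share was 3.19% in GC-1spg (3.18 to 3.21), beside 1.58% in GC-2spd (ts) (1.56 to 1.59). The *Eno1* tag was number 2 of all distinct tags in GC-1spg, with 51780 copies, and number 7 in GC-2spd (ts), with 19731. The *Gapdh* tag was number 4 and number 15, and the *Ldha* tag number 7 and number 35. All intervals here cover counting error alone: copies made by PCR are not separate molecules.

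**Figure D2:**
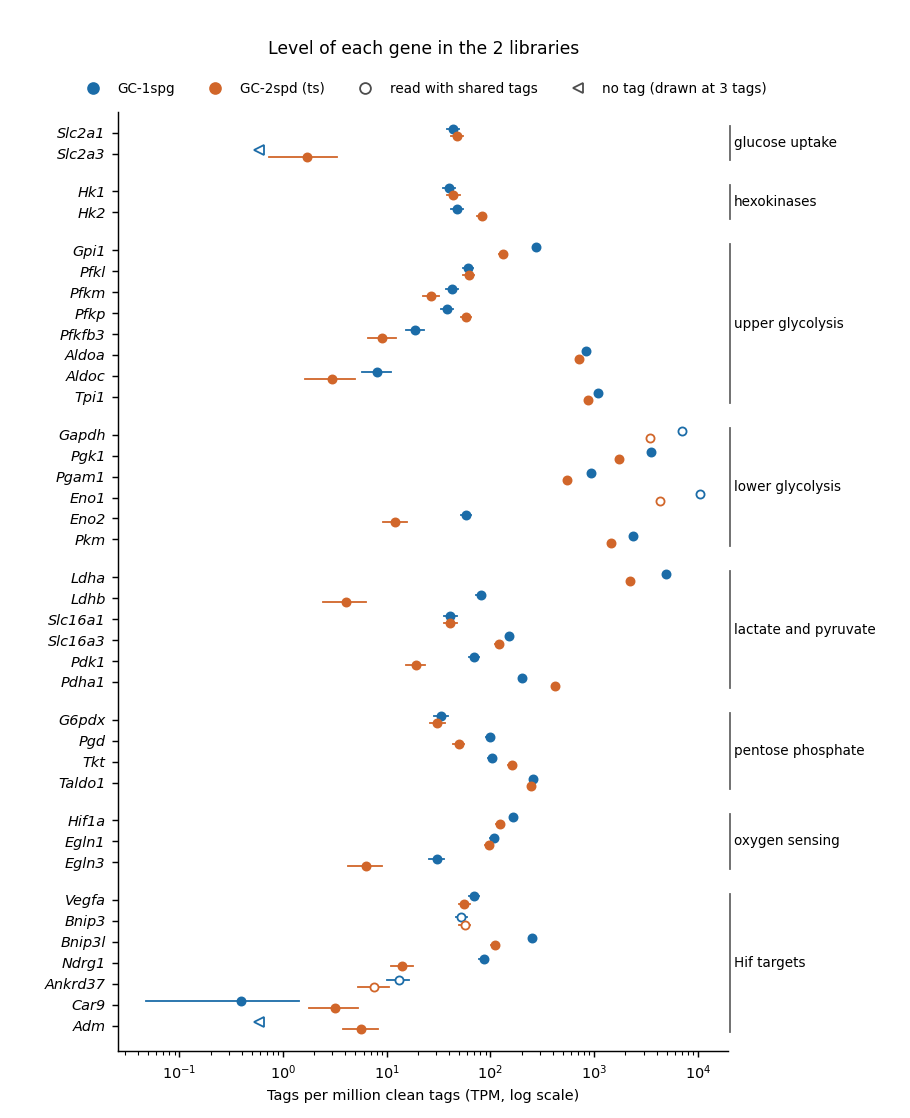
TPM of each of the 38 genes (x axis, log scale) in GC-1spg (blue) and GC-2spd (ts) (orange), grouped by role, with exact 95% Poisson intervals as lines. Open circles were read with shared tags and triangles mark genes with no tag, drawn at 3 tags, and the levels run from *Car9* at 0.394 TPM to *Eno1* at 10484 TPM, both in GC-1spg.

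Tags of the main glucose transporter did not differ by much, and uptake itself was not measured. *Slc2a1*, which codes for the widespread transporter GLUT1, was at 44.0 TPM (223 tags) and 48.0 TPM (227 tags), a log2 ratio of 0.13 (95% interval -0.15 to 0.40) that turned to -0.05 with TMM scaling and -0.04 with DESeq2 size factors. *Slc2a3*, for the high-affinity GLUT3, had no tag in GC-1spg, beside 8 for GC-2spd (ts), and was not called (Audic-Claverie FDR = 0.0138). Its level in GC-2spd (ts) was 2.86-fold a floor of 3 tags in GC-1spg, a ratio that leaves out counting error in the 8 tags. Neither of the 2 uptake genes was therefore called.

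The hexokinases, which trap glucose as glucose 6-phosphate, were read from *Hk1*, the housekeeping form, and *Hk2*, the inducible form. *Hk1* stood at 40.0 and 44.0 TPM, with a log2 ratio of 0.14 (-0.15 to 0.42) that came to -0.04 with TMM and -0.03 with DESeq2 size factors. *Hk2* was at 47.5 and 82.7 TPM, 1.74-fold apart (1.48 to 2.05), under the fold that a call needs.

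Of the 8 genes of upper glycolysis, 2 were called, both lower in GC-2spd (ts). *Gpi1*, the isomerase that makes fructose 6-phosphate, fell from 276 TPM to 132 TPM, 2.09-fold (1.90 to 2.31). *Pfkfb3*, which makes the activator fructose 2,6-bisphosphate, fell from 18.9 to 9.10 TPM, 2.08-fold (1.44 to 3.05). The 3 subunits of phosphofructokinase, the main control step, went separate ways below the fold for a call. *Pfkl*, the liver form, was at 60.7 and 61.6 TPM, a log2 ratio of 0.02 that turned to -0.16 with TMM, -0.15 with DESeq2 size factors and -0.06 with scaling to unshared sense tags. *Pfkm*, the muscle form, was at 42.4 and 26.7 TPM, and *Pfkp*, the platelet form, at 38.2 and 58.4 TPM. For both of these the interval excluded equal levels, at -0.998 to -0.35 on the log2 scale for *Pfkm* and 0.34 to 0.88 for *Pfkp*.

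*Aldoa*, the main aldolase, was at 828 and 714 TPM, 1.16-fold apart (1.11 to 1.21), and *Tpi1* at 1094 and 883 TPM, 1.24-fold apart (1.19 to 1.29). *Aldoc*, the brain form, was at 8.08 and 2.96 TPM from 41 and 14 tags. Its log2 ratio of -1.45 (-2.44 to -0.54) missed the FDR (Audic-Claverie FDR = 0.00177), and it was called with TMM, DESeq2 and unshared-tag scaling.

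Lower glycolysis, from glyceraldehyde 3-phosphate to pyruvate, held 6 of the members, and 2 of them were called lower from unshared tags. *Pgk1*, phosphoglycerate kinase and the first ATP-yielding step, fell from 3560.4 TPM to 1748 TPM, 2.04-fold (1.98 to 2.09). *Eno2*, the neuronal enolase, fell from 58.0 to 12.1 TPM, 4.81-fold (3.61 to 6.501). *Pgam1*, the mutase between them, was at 933 and 542 TPM, 1.72-fold apart (1.64 to 1.81), and *Pkm*, pyruvate kinase, at 2372 and 1472 TPM, 1.61-fold apart (1.56 to 1.66), both under the fold for a call. The *Pkm* sum includes coding tags that also match pseudogenes. Its 3′ tag, which matches none, had a log2 ratio of -0.98 (-1.03 to -0.94). *Gapdh* and *Eno1* could not be read from their few unshared tags, 2 and 4 for *Gapdh* and 10 and 5 for *Eno1*. With the shared tags *Gapdh* was at 6988 and 3443 TPM, 2.03-fold lower in GC-2spd (ts) (1.99 to 2.07), and *Eno1* at 10484 and 4312 TPM, 2.43-fold lower (2.39 to 2.47). Both would then be called, with 12 members lower and 2 higher. The part of the copies in these tags was not tested.

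Lactate and pyruvate genes showed the largest fold of all members with tags in both libraries. *Ldha*, the dehydrogenase form that favours lactate formation, fell from 4971 TPM to 2209 TPM, 2.25-fold (2.20 to 2.30). *Ldhb*, the form that favours the return to pyruvate, fell from 80.8 TPM to 4.02 TPM, 20.1-fold (12.7 to 33.7), from 410 tags to 19. *Ldhb* was the only member called lower under every alternative tried, which include edgeR's exact test at an assumed biological coefficient of variation (BCV) of 0.4. The monocarboxylate transporters stayed closer together. *Slc16a1*, for the transporter MCT1, was at 41.2 and 41.0 TPM, a log2 ratio of -0.01 that was 0.01 with exact matches only and 0.06 when all matches within 1 mismatch had to be of 1 gene. *Slc16a3*, for the exporter MCT4, was at 152 and 120.4 TPM, 1.26-fold apart (1.13 to 1.41).

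The 2 genes at the gate of pyruvate into mitochondria were called in opposite directions. *Pdk1*, the kinase that switches pyruvate dehydrogenase off, fell from 69.6 to 19.0 TPM, 3.66-fold (2.89 to 4.66). *Pdha1*, the subunit of pyruvate dehydrogenase that this kinase acts on, rose from 203 to 422 TPM, 2.08-fold (1.93 to 2.25). The *Pdha1* call was lost with TMM, DESeq2 and unshared-tag scaling, where its log2 ratio was 0.88, 0.89 and 0.98. The *Pdk1* call turned with exact matching to a log2 ratio of 1.64, called higher, since its main tag differs by 1 base between the libraries, as described below.

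None of the 4 pentose phosphate genes was called. *G6pdx*, glucose 6-phosphate dehydrogenase and the entry step, was at 33.5 and 30.9 TPM, with a log2 ratio of -0.12 (-0.45 to 0.21). *Pgd*, the next dehydrogenase, was at 98.2 and 49.3 TPM, 1.99-fold apart (1.70 to 2.34), just under the fold for a call, and was called lower under each of the 3 other scalings. *Tkt*, transketolase, was at 103 and 160.4 TPM, 1.56-fold apart (1.40 to 1.75), and *Taldo1*, transaldolase, at 258 and 245 TPM, 1.054-fold apart (0.973 to 1.14). The oxidative step of *Pgd* and the transfer step of *Tkt* thus had intervals on opposite sides of equal levels.

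Among the oxygen sensors 1 of 3 was called. *Hif1a*, the regulated subunit of Hif, was at 164 and 122 TPM, 1.34-fold apart (1.203 to 1.49). *Egln1*, the main prolyl hydroxylase, was at 109 and 96.5 TPM, 1.13-fold apart (0.99 to 1.28). *Egln3*, a hydroxylase that is itself a Hif target, fell from 30.4 to 6.35 TPM, 4.78-fold (3.22 to 7.33).

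The 7 Hif targets split. *Ndrg1*, a gene of stress and differentiation, fell from 86.4 to 14.2 TPM, 6.09-fold (4.70 to 8.001). *Bnip3l*, a mitophagy receptor, fell from 251 to 111 TPM, 2.26-fold (2.04 to 2.51). *Adm*, for the vessel-active peptide adrenomedullin, had no tag in GC-1spg against 27 tags for GC-2spd (ts), or 9.66-fold the floor of 3 tags (Audic-Claverie FDR = 3.0e-08). *Vegfa*, the vessel growth factor, was at 69.6 and 56.1 TPM, 1.24-fold apart (1.06 to 1.46), and was not called. *Car9*, a carbonic anhydrase of the cell surface, had 2 and 15 tags, 8.05-fold apart with a wide interval of 1.87 to 72.5, and was not called (Audic-Claverie FDR = 0.00384). *Bnip3* and *Ankrd37* lie opposite other annotated transcripts and kept 0 and 2 tags, and 0 and 0 tags, when such tags were left out. With sense matches preferred *Bnip3*, the sister gene of *Bnip3l*, was at 52.2 and 56.7 TPM, with a log2 ratio of 0.12 (-0.13 to 0.37), and *Ankrd37* at 13.01 and 7.62 TPM, 1.71-fold apart (1.12 to 2.64). Neither was called in that reading. Genes that are classed together as Hif targets were thus called in both directions between these libraries.

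**Figure D3:**
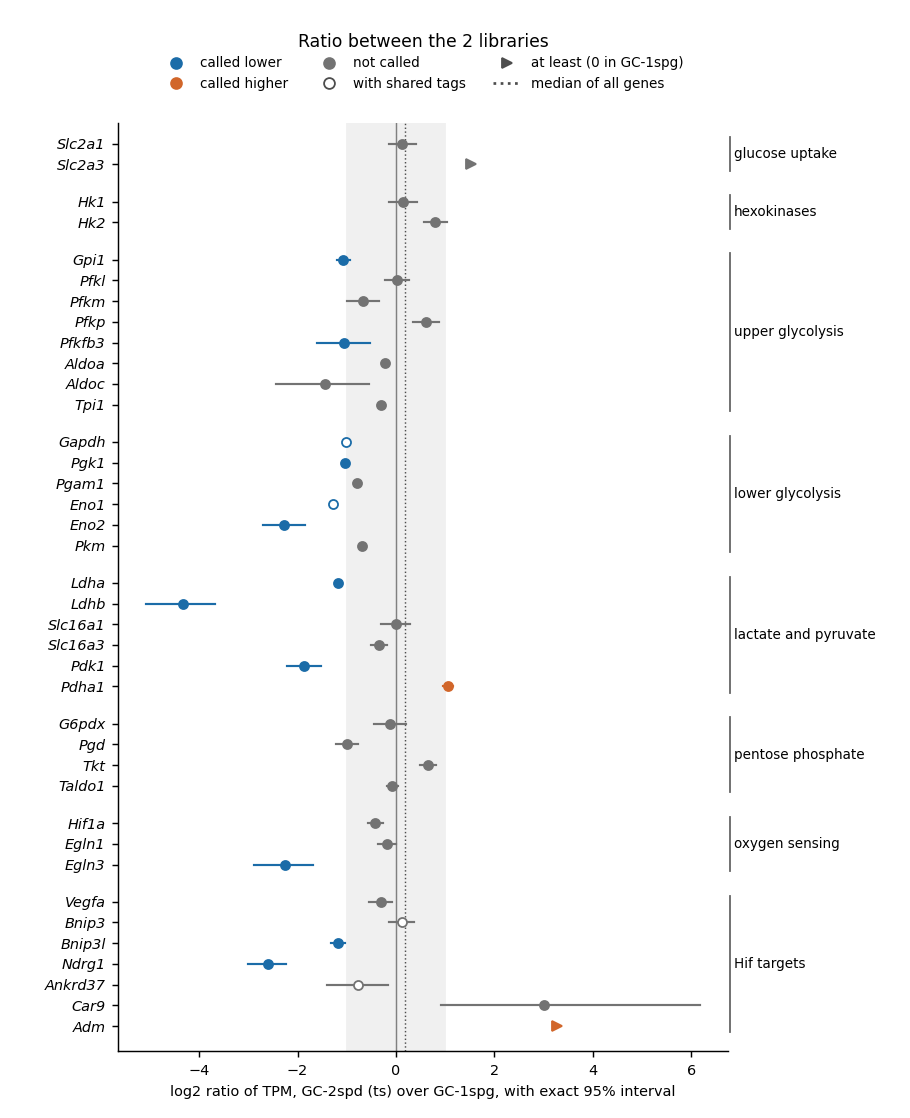
log2 ratio of TPM, GC-2spd (ts) over GC-1spg (x axis), for each gene by role, with the exact 95% interval as a line, blue for called lower, orange for called higher and grey for not called. Open circles were read with shared tags. Triangles are ratios to a floor of 3 tags for genes with no tag in GC-1spg, without counting error. The grey band marks the fold under 2 and the dotted line the median of all genes at 0.19. The ratios drawn as circles run from -4.33 for *Ldhb* to 3.01 for *Car9*.

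Where enzymes come in several forms, the make-up of the family was compared as the share of each form among the family's tags, with no test. *Hk2* held 54.3% (49.5 to 59.0) and 65.3% (61.3 to 69.1) of hexokinase tags. *Pfkm* held 30.0% (26.7 to 33.5) and 18.2% (15.4 to 21.3) of the phosphofructokinase tags, and *Pfkp* 27.1% (23.8 to 30.5) and 39.8% (36.2 to 43.6), while *Pfkl* held 43.0% (39.3 to 46.7) and 41.99% (38.3 to 45.8). The intervals of *Pfkl* and *Pfkp* overlapped in GC-2spd (ts), and not in GC-1spg. *Ldha* held 98.4% and 99.8% of lactate dehydrogenase tags and *Ldhb* the remaining 1.60% (1.45 to 1.76) and 0.182% (0.109 to 0.284). *Egln3* held 21.8% (18.8 to 25.04) and 6.17% (4.203 to 8.70) of the tags of the pair with *Egln1*. *Aldoa* held 99.0% and 99.6% of aldolase tags, and *Slc16a3* 78.7% (75.998 to 81.2) and 74.6% (71.3 to 77.6) of those of the monocarboxylate pair. With shared tags *Eno2* held 0.550% (0.489 to 0.616) and 0.279% (0.211 to 0.361) of enolase tags, and *Bnip3l* 82.7% (80.8 to 84.6) and 66.2% (62.7 to 69.5) of the tags of the pair with *Bnip3*. *Slc2a1* held 100% and 96.6% of the tags of the glucose transporter pair.

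**Figure D4:**
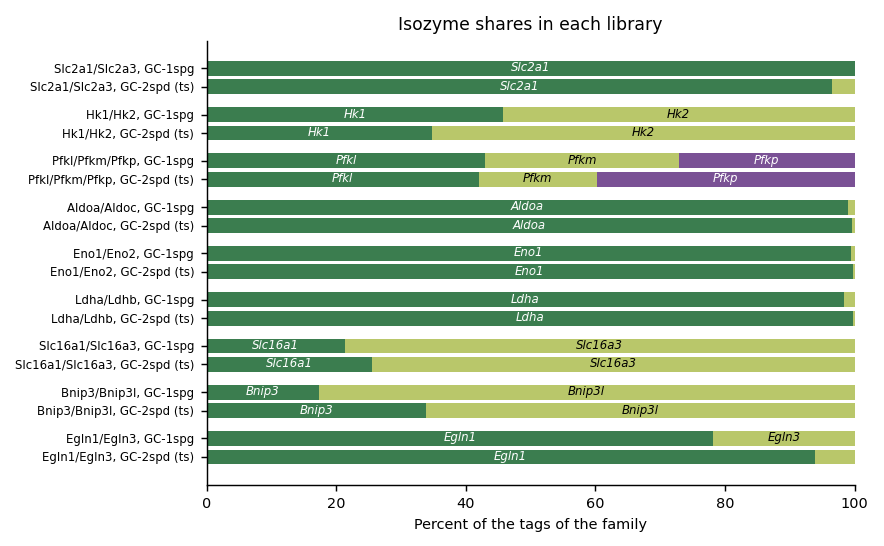
Share of each form among the tags of its family (x axis, percent) in GC-1spg and GC-2spd (ts), as stacked bars for 9 families, with shared tags for the enolase and *Bnip3* families. *Hk2* widened from 54.3% to 65.3%, *Pfkp* from 27.1% to 39.8%, and *Egln3* narrowed from 21.8% to 6.17%.

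For 13 members, at least 2 CATG sites each held 5% or more of at least 100 tags, and the share of each site was compared without a test. In *Pkm*, the 3′ tag had 10595 and 4991 copies, or 88.1% (87.5 to 88.6) and 71.8% (70.7 to 72.8) of the gene's tags. The tag of exon 5 had 994 and 1485 copies, or 8.26% (7.78 to 8.77) and 21.3% (20.4 to 22.3), so that it was higher in GC-2spd (ts) while the 3′ tag was lower, with log2 ratios of 0.68 (0.56 to 0.80) and -0.98 (-1.03 to -0.94). The exon 5 tag also matches 2 pseudogenes exactly, and is left out when pseudogenes count as matches. The part of the pseudogenes in this shift was not tested.

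Other members shifted between sites of the 3′ UTR. *Egln1* site 4 held 73.7% (69.8 to 77.4) and 54.4% (49.7 to 59.0) of its tags, and site 1, nearest the 3′ end, 22.5% (19.0 to 26.2) and 37.3% (32.8 to 41.9). Read from the site nearest the 3′ end alone, the *Egln1* log2 ratio was 0.56 in place of -0.17. *Bnip3l* site 1 held 61.8% (59.0 to 64.4) and 72.7% (68.7 to 76.5), and site 11, whose tag also matches 1 pseudogene, 36.6% (33.9 to 39.3) and 25% (21.3 to 28.9). *Gpi1* was read from neighbouring sites, of which site 4 held 51.4% (48.8 to 54.1) and 43.4% (39.5 to 47.4). In *Vegfa* the site nearest the 3′ end held 82.4% (78.1 to 86.3) and 92.5% (88.6 to 95.3). For *Slc16a1*, site 7 held 58.4% (51.4 to 65.1) and 72.2% (65.3 to 78.3), intervals that only just stay apart. The intervals of the leading sites of *Hif1a*, *Hk1*, *Pfkl*, *Pfkfb3*, *Egln3*, *Eno2* and *Slc2a1* overlapped between the libraries.

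**Figure D5:**
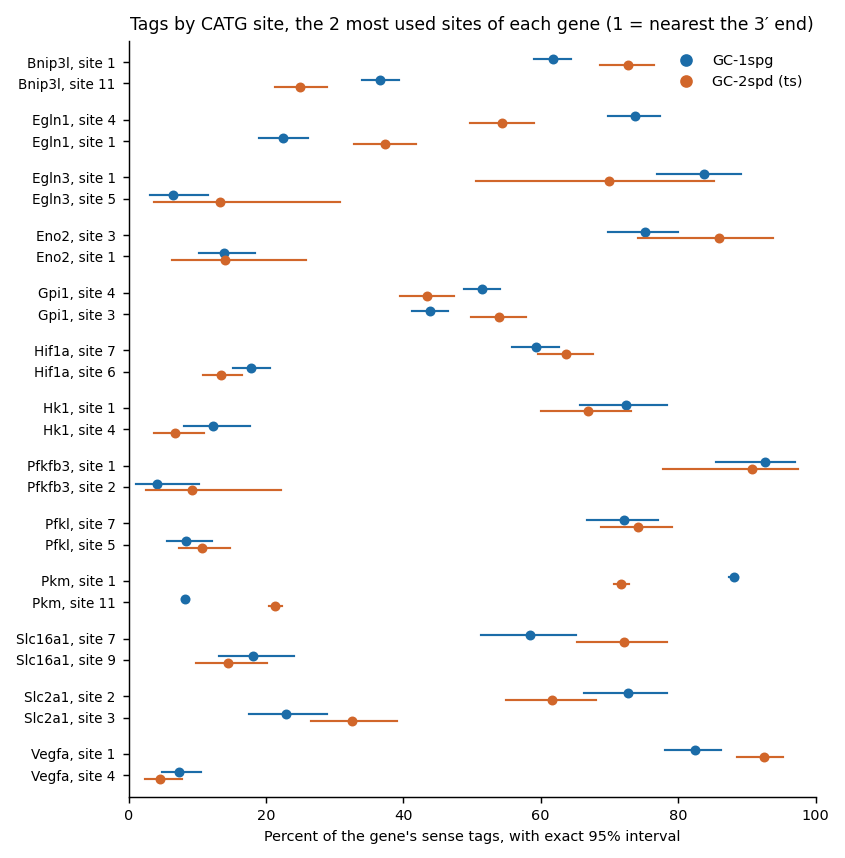
Share of a gene's sense tags (x axis, percent) at its 2 most used CATG sites, for 13 genes in GC-1spg (blue) and GC-2spd (ts) (orange), with exact 95% intervals as lines and sites numbered from the 3′ end. *Pkm* site 1 moved from 88.1% to 71.8% and *Egln1* site 4 from 73.7% to 54.4%, without overlap of their intervals.

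In 2 members a tag of GC-1spg differed by 1 base from the reference, which GC-2spd (ts) matched. Positions are counted from 1 at the C of CATG, with the reference base first and the tag's base last. The main *Pdk1* tag of GC-1spg carried G15A in 320 copies, beside 0 copies of the reference tag. In GC-2spd (ts) the reference tag had 73 copies and the other 0. At a minor site of *Pgam1*, GC-1spg had 247 copies with C16T and 0 reference copies, and GC-2spd (ts) 0 and 62. Over all genes, 94 tags of 93 genes had this pattern with the changed base in GC-1spg, at 20 or more copies on each side, and 0 had it with the changed base in GC-2spd (ts). The origin of these bases was not tested. Matching with 1 mismatch counts both forms, so the 3.66-fold difference of *Pdk1* rests on that choice.

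Hif is known to bind DNA at ACGTG and GCGTG, so the promoter windows of the members, 250 bases before to 50 after the start in RefSeq on GRCm38.p6, were searched on both strands. Of the members, 35 had a window, with 50 windows in all, and *Slc2a3*, *Bnip3l* and *Ndrg1* had none. ACGTG occurred in 25 of the 50 windows (50%), beside 19.6% of all 32851 windows and 24.7% of the 13380 windows of tested genes. GCGTG occurred in 29 (58%), beside 32.4% of all windows and 48.9% of those of tested genes. Counted by gene, ACGTG was found for 22 of 35 members (62.9%), beside 28.6% of the 10516 tested genes with a window, and GCGTG for 24 (68.6%), beside 54.6%. Known Hif targets and glycolytic genes were listed as members, so the higher shares are partly built into the list. Of the 8 members called lower that had a window, 4 held ACGTG, and of the other 27 members 18 did. For GCGTG it was 4 of the 8 and 20 of the 27. The 250 bases before the start are shown for *Ldha* (chr7:46845554-46845803, plus strand), *Pgk1* (chrX:106186850-106187099, plus strand) and *Egln3* (chr12:54203875-54204124, minus strand), which were called lower and hold ACGTG, with either motif on either strand in capitals. In *Ldha* the motif read on both strands forms CACGTG, where 1 stretch counts once for each strand. A further *Ldha* window, not shown, held no ACGTG, and *Pfkfb3*, called lower with ACGTG as well, is not shown.
Ldha: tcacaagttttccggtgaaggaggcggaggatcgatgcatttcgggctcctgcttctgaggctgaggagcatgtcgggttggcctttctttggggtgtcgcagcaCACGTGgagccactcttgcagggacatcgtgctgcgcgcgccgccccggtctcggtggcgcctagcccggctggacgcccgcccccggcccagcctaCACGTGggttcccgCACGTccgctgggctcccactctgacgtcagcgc
Pgk1: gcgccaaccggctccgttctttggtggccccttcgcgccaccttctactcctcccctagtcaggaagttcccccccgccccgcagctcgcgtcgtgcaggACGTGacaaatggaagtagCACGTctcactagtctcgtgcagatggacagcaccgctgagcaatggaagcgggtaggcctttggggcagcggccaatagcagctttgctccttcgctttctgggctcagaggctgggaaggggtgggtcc
Egln3: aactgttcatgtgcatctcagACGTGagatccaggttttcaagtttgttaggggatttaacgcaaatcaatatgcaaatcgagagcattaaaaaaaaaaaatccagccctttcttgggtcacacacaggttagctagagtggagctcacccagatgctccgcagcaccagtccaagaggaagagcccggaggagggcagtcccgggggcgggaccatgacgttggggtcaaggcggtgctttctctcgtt
The matches are letters only, and whether Hif binds there in these cells was not measured.

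A wider list of 127 genes of the same pathways was read in the same way, and 102 of them had an unshared tag. Of these, 17 were called higher and 15 lower in GC-2spd (ts), or 31.4% in all, beside 19.8% of all genes tested. Over all genes tested, 11.9% were called higher and 7.95% lower. The 85 with at least 20 tags had a median log2 ratio of 0.03, with 41 of them below 0, beside 0.19 for all genes of that depth. Further Hif targets held most of the calls, with 7 higher and 10 lower of 35 detected (48.6%). Among genes of pyruvate, lactate and pyruvate dehydrogenase 5 of 17 were called (29.4%), all higher. Among glycolytic enzymes and regulators 3 of 16 were called, all higher, and their share of 18.8% was near that of all genes. The glycogen and hexosamine branches had 1 higher and 3 lower of 10 (40%). Oxygen sensing had 2 lower of 11 (18.2%), the pentose phosphate pathway 1 higher of 6 (16.7%), and the 5 detected glucose and fructose transporters none.

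The higher calls were led by *Pdk4*, a further kinase of pyruvate dehydrogenase, with no tag in GC-1spg against 61 for GC-2spd (ts), or 21.8-fold the floor of 3 tags. *Pdk1* and *Pdk4* were thus called in opposite directions. *Got1*, the cytosolic aspartate aminotransferase, rose from 4.53 to 67.1 TPM and *G6pc3*, a glucose 6-phosphatase, from 1.18 to 18.6 TPM. The growth factor *Pgf* had 2 and 25 tags, the repressor *Bhlhe41* 11 and 70, the secreted *Stc2* 9 and 43 and *Pgm2l1* of the phosphoglucomutase family 15 and 64. The lower calls were led by *Epas1*, the Hif subunit also named Hif2a, which fell from 32.7 TPM to 0.423 TPM (166 tags to 2). *Car12*, a carbonic anhydrase of the cell surface, fell from 22.5 to 0.846 TPM, and *Gfpt2*, of the hexosamine branch, from 24.1 to 1.27 TPM. *Angptl4*, of lipid handling, fell from 68.8 to 8.04 TPM and *Bhlhe40*, the relative of *Bhlhe41*, from 209 to 62.0 TPM. *Pnrc1* fell from 95.03 to 24.8 TPM, *Rora* from 10.1 to 3.38 TPM and the histone demethylase *Kdm4b* from 21.5 to 8.04 TPM. *Bhlhe40* and *Bhlhe41*, like the *Pdk* pair, were called in opposite directions, and *Epas1* was called lower while *Hif1a* was not called.

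The testis forms of these enzymes, which later germ cells use, were near the limit of detection. *Gapdhs* had 2 tags in GC-1spg and *Eno4* 3, with 0 in GC-2spd (ts), and *Pgk2*, *Ldhc*, *Pdha2*, *Aldoart1*, *Aldoart2*, *G6pd2* and *Tktl2* had 0 tags in both libraries. *Pgam4* was not in the annotation used. A count of 0 allows up to 3 tags, or 0.591 and 0.635 TPM, for counting error only, and no tag with a single copy is in the files.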

How the data were processed

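Tag libraries of the cell lines GC-1spg and GC-2spd (ts), 1 of each, were compared. Before deposit, the authors discarded adaptors, reads of low quality and tags seen once. The authors deposited a raw count (copy number) per distinct tag, and a TPM value that divides it by the clean tags of its library. Their matching to genes was not used. Here the 21-base tags were matched to all CATG sites of the 141767 transcripts of GENCODE release M21 on GRCm38, exact matches first and otherwise with 1 mismatch. A tag was unshared when its matches outside pseudogenes, on either strand, were of 1 gene symbol, and each gene's unshared sense counts were added up and divided by all clean tags. Libraries were compared by a two-sided Audic-Claverie test with Benjamini-Hochberg adjustment over 14295 genes, and a gene was called if its FDR did not pass 0.001 and its log2 ratio was 1 or more in either direction (0.01 TPM stood in for 0). edgeR's quasi-likelihood test needs replicates and could not be fitted. Intervals are exact (Clopper-Pearson, 95%) and cover counting error only. The test was run on simulated data with known changes before use. Those data held counting error only, with changes above the fold for a call in well-covered genes. They had no variation between cultures, so the check does not cover calls near that fold or at low counts.

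Every member is named, with at most 8 called genes per direction of the wider list with at least 20 tags, and each testis isozyme. Of the genes so chosen, 1 is not reported here. The members, lists and tests were chosen with earlier results of these data known. The alternatives were 7 rules of matching, TMM and DESeq2 scaling, scaling to unshared sense tags, a minimum of 10 tags, 0.5 tags added, Fisher's exact test, and the exact test of edgeR at an assumed biological coefficient of variation (BCV) of 0.1, 0.2 or 0.4. The rule that gives tags shared with predicted genes, *Eno1b* or opposite transcripts to the member was added after seeing the data. Software was R 4.3.3 with edgeR 4.0.16 and DESeq2 1.42.0, and Python 3.11.15 with scipy 1.17.1, pandas 2.3.3, numpy 2.4.6 and matplotlib 3.10.9.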

Additional observations from a re-analysis of the deposited data

Results flagged for a closer look

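Tags on the antisense strand of the members lay outside the comparisons and were above the limit of 3 tags that a count of 0 allows. GC-1spg had 3878 such tags and GC-2spd (ts) had 1903, with 31 and 27 members above that limit. As a share of sense tags this was 4.74% and 4.21% for the members, beside 13.8% and 11.6% over all genes. *Pgam1* had 939 and 346 antisense tags, *Ldha* 657 and 143, *Pgk1* 609 and 356, *Ndrg1* 101 and 11 and *Egln3* 64 and 7, while *Eno1* had 0 and 23.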

How the results depend on the processing

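The members called numbered 11 to 14 under 14 of the 16 alternatives, and 8 of the 10 members called lower, *Gpi1*, *Pfkfb3*, *Pgk1*, *Eno2*, *Ldha*, *Ldhb*, *Egln3* and *Ndrg1*, kept that call under every alternative other than edgeR's tests with an assumed BCV. *Pdk1* and *Bnip3l* did not: the *Pdk1* log2 ratio was 1.64 with exact matches only, and *Bnip3l* came to -0.94 when pseudogenes counted as matches. With an assumed BCV of 0.2, 6 members were called, 5 lower and 1 higher, and 12 of the wider list, 6 in each direction. With a BCV of 0.4, 1 member was called, *Ldhb*, lower, with 0 higher, and 3 of the wider list, 1 lower and 2 higher. With TMM, DESeq2 and unshared-tag scaling 1 member was called higher in place of 2. Of 586 member ratios recomputed, 14 changed sign, 22 lost a call and 9 gained one. The log2 ratio of *Slc2a1* was -0.11 at the site nearest the 3′ end, -0.052 with TMM and -0.040 with DESeq2 factors, that of *Hk1* -0.043 and -0.030 with TMM and DESeq2 factors, and that of *Pfkl* -0.16, -0.15 and -0.063 with TMM, DESeq2 and unshared-tag scaling. *Slc16a1* was at 0.0082 with exact matches and 0.059 with all matches within 1 mismatch, and *Egln1* at 0.56 at the site nearest the 3′ end. *Gapdh*, at 1.10 from 6 unshared tags, was at -1.02 both with predicted genes left out and with shared tags given to the member.

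Shares are given as differences in percentage points, GC-2spd (ts) minus GC-1spg. At the site nearest the 3′ end alone, *Pfkp* differed by 20.8 in place of 12.8 and *Eno2* by -21.5 in place of -4.78. *Egln3* differed there by -40.0 in place of -15.6 and *Slc16a3* by 0 in place of -4.12. Both *Eno2* values leave out the *Eno1* tags shared with *Eno1b*, and the -4.78 rests on 10 and 5 unshared *Eno1* tags. With shared tags *Eno2* held 0.550% and 0.279% of enolase tags. When all matches within 1 mismatch had to be of 1 gene, *Aldoc* differed by -9.71 in place of -0.55. With sense matches preferred, and with shared tags given to the member, *Bnip3l* differed by -16.6 in place of -0.38. With pseudogenes counted as matches, the leading site of *Bnip3l* differed by 0.063 in place of 10.9 and that of *Pkm* by -0.069 in place of -16.3, since the second site then drops out. At the site nearest the 3′ end alone, the leading sites of *Pfkl* (site 7), *Egln1* (site 4) and *Eno2* (site 3) drop out. The *Slc16a1* sites 7, 9 and 12 drop out as well, so the 0 of *Slc16a3* was fixed by that rule. The cause of the remaining changes was not tested. With 1 library per line no replicate could be left out. No paired analysis was possible because each line has 1 library, which leaves a single pair. Depth limits *Slc2a3*, *Car9*, *Adm* and the testis isozymes, which have under 30 tags each.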
